A study of Homo sapiens with 12 samples.

Results

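Genes of epithelial sodium, chloride and bicarbonate transport were followed in RPChiPS771, a human iPS cell line, after its differentiation into enterocytes, which take up nutrients in the gut. The set held 8 genes of the 58735 in the deposited table, picked by gene symbol: the sodium/proton exchangers SLC9A2 and SLC9A3, the epithelial sodium channel subunit SCNN1A, the sodium pump subunit ATP1B1, the anion exchangers SLC26A3 and SLC26A6, the chloride channel CFTR and the sodium-potassium-chloride cotransporter SLC12A2. RNA was sequenced from 12 libraries in 4 groups of 3, all kept in the medium named M3 from day 15 to day 23. Control cultures received no VD3, VD3 cultures received 1 µM VD3, VPA cultures received 100 µM VPA and no VD3, and VD3VPA cultures received 100 µM VPA with 1 µM VD3. The labels do not spell out the abbreviations, which commonly stand for vitamin D3 and for valproic acid, an inhibitor of histone deacetylases. The design asks how both compounds act on differentiation at the maturation stage. There was 1 cell line, and whether libraries of the same group came from separate cultures is not stated. The p-values therefore reflect library-to-library spread, part or all of which may be technical.

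The intestinal lining moves salt and water in both directions. Absorption couples the apical exchangers SLC9A2 and SLC9A3, which take in sodium for protons, to SLC26A3 and SLC26A6, which take in chloride for bicarbonate or other anions, and the basolateral sodium pump drives the whole. Secretion loads chloride through basolateral SLC12A2 and releases it through apical CFTR, with potassium channels such as KCNQ1 and its partner KCNE3 keeping up the electrical drive, while the epithelial sodium channel is best known from the distal colon, kidney and lung.

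The start sites of CFTR and SLC26A3 are shown because these genes, both on chromosome 7, differed in their values with VPA alone, as described further on. Each line holds the 250 bases before the start in the RefSeq promoter table (GRCh38.p14), 5′ to 3′ on the gene's own strand. CFTR lies at chr7:117479775-117480024 on the plus strand and SLC26A3 at chr7:107803224-107803473 on the minus strand. Capitals mark half-sites of the vitamin D receptor and related nuclear receptors, for which the searched hexamers were AGGTCA, the variant GGGTCA, the variant AGTTCA and the variant GGTTCA. They also mark the longer HNF4 site CAAAGGTCA, which contains AGGTCA, and the HNF1 half-site GTTAAT, and all motifs were searched on both strands.
CFTR: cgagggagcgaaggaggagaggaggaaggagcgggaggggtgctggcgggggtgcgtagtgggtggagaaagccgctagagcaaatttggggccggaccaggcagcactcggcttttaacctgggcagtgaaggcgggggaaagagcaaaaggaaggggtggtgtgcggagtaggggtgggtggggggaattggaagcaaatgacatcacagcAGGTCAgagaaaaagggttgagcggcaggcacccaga
SLC26A3: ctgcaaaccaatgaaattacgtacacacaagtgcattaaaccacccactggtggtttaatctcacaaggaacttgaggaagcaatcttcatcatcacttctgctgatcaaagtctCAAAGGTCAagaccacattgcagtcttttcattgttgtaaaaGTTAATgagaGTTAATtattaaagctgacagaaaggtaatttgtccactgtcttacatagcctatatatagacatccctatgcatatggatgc

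In CFTR the hexamer AGGTCA lay 37 to 32 bases before the start. In SLC26A3 the HNF4 site lay 135 to 127 bases before it, followed by 2 HNF1 half-sites that began at 93 and 83 bases. Of the 35116 promoters in the table, 33.8% held at least 1 of the 4 hexamers, 12.1% held AGGTCA itself, 6.23% held GTTAAT and 0.339% held CAAAGGTCA. A direct repeat of 2 such hexamers with 3 bases between them, the classic vitamin D response element, occurred in 0.0655% of promoters and in none of the members'. The table had entries for 7 of the 8 genes, SCNN1A being the other. Their windows held 61.2% to 82.0% G and C except for SLC26A3, at 37.6%, against a median of 58% over all promoters, of which 8.94% were lower than SLC26A3. The Sp1 site GGGCGG, present in 42.6% of all promoters, was found 4 times before SLC9A2, 6 times before SLC9A3, 3 times before SLC12A2 and 2 times each before ATP1B1 and the upstream start of SLC26A6. These matches describe the letters only, and no binding was measured.

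Levels are FPKM (fragments per kilobase of gene, with the library scaling of the depositors), and group values are means ± SD over 3 libraries. Between 32160289 and 43998467 fragments per library had been assigned to genes. The labelled cell type was checked with 15 enterocyte markers, all of which reached 1 FPKM in at least 3 libraries, though sucrase-isomaltase (SI) stood at 1.15 ± 0.08 FPKM in Control and 0.10 ± 0.03 in VD3VPA. Hepatocyte markers were abundant in the same libraries: 8 of 9 reached that level, and their sum was 36282 to 37493 FPKM in Control, 31738 to 34931 with VD3, 35993 to 41066 with VPA and 29304 to 33147 with both, most of it AFP, a fetal liver and gut gene. Each library pooled many cells, so fewer cells of a type and less RNA per cell cannot be told apart.

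**Figure D1:**
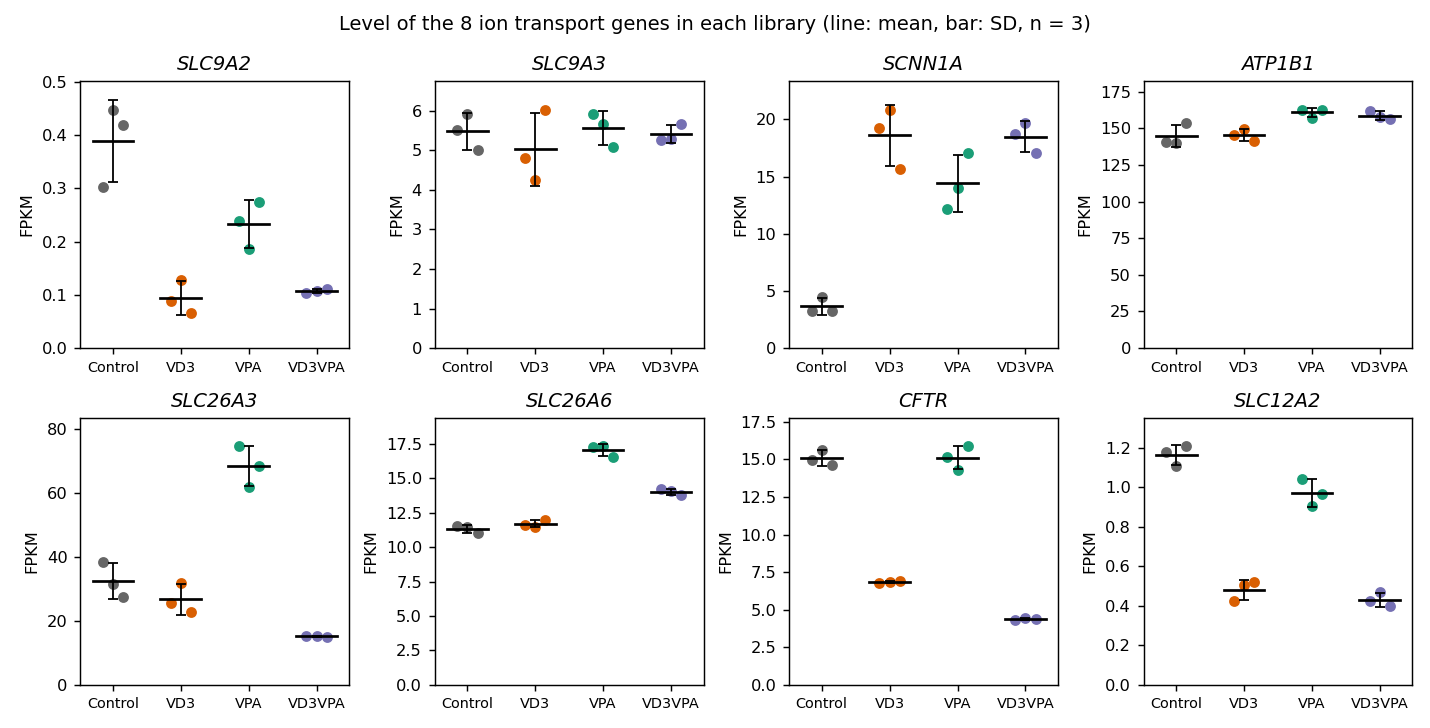
FPKM of the 8 genes (vertical axes, from 0) in each of the 12 libraries by group; dots are libraries, lines are means and bars are SD (n = 3). SCNN1A is lower in the Control libraries than in every treated one, CFTR and SLC12A2 fall in both VD3 groups, and SLC26A3 peaks with VPA alone at 62.0 to 74.6 FPKM.

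In Control cultures ATP1B1 was the most abundant of the 8 genes at 145 ± 7.65 FPKM, above 98.3% of tested genes, followed by SLC26A3, CFTR, SLC26A6, SLC9A3, SCNN1A, SLC12A2 and SLC9A2. Neighbours in this order did not overlap between libraries. SCNN1A moved from the sixth place in Control to the third with VD3 and the second with both compounds, while CFTR went from the third place to the sixth with both. In VPA cultures CFTR and SCNN1A overlapped, and no other neighbours did in any group.

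Tests used limma on the 12561 genes that reached 1 FPKM in 3 or more libraries, on log2(FPKM + 1), a scale that understates changes of low genes. An adjusted p under 0.05 (Benjamini-Hochberg) counted as called. SLC9A2 was below this minimum and 7 members were tested. SLC12A2 passed it through the Control and VPA cultures, where it was higher, and stood under 1 FPKM in every library with VD3.

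With VD3 alone, SCNN1A rose while CFTR and SLC12A2 fell, and the other 4 tested members did not pass. Across all genes 62.5% were called in this comparison, 31.3% higher and 31.2% lower. In this and the next comparisons, 7 members are too few to be read against such shares. With VPA alone SCNN1A, SLC26A3, SLC26A6 and ATP1B1 rose and none of the 7 was called lower, against 52.7% of all genes called, 29.6% higher and 23.1% lower. With both compounds SCNN1A, SLC26A6 and ATP1B1 were higher than Control and CFTR, SLC26A3 and SLC12A2 lower, against 64.3% of all genes called, 31.1% higher and 33.1% lower. The median log2 fold change of the 7 was -0.11, 0.15 and -0.01 in these comparisons, beside 0.00, 0.01 and -0.01 over all genes. The libraries of the groups did not overlap for 3, 5 and 6 of the 7 members, and for 65.9%, 57.5% and 68.8% of all genes. Between VD3VPA and VD3 they did not overlap for 4 members and 51.4% of genes, and between VD3VPA and VPA for 4 members and 70.1%. The comparisons with Control share the Control libraries and are not independent.

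**Figure D2:**
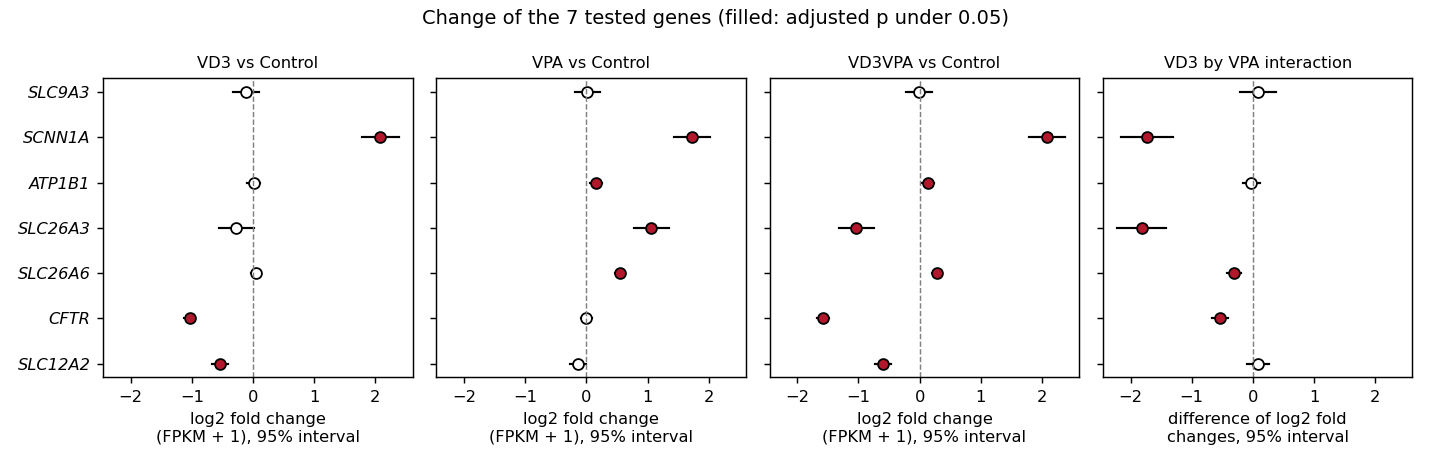
Log2 fold changes on the log2(FPKM + 1) scale (horizontal axes) with 95% intervals for the 7 tested genes, in each treatment against Control and for the interaction of the compounds; filled points have an adjusted p under 0.05. SCNN1A is at 2.08, 1.73 and 2.08 against Control, and 4 genes have a called interaction, each below 0.

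The RNA of SCNN1A, which encodes the alpha subunit of the epithelial sodium channel (ENSG00000111319; chromosome 12, 6346843 to 6377730 in GRCh38, minus strand), rose with each treatment. Its level was 3.25, 4.46 and 3.21 FPKM in Control, 19.2, 20.8 and 15.7 with VD3, 12.1, 14.0 and 17.1 with VPA, and 18.7, 19.7 and 17.0 with both. Every treated library lay above every Control library, and the VPA and VD3VPA libraries overlapped at their edge. The mean was 5.11-fold higher than Control with VD3, 3.96-fold with VPA and 5.07-fold with both. On the log2 scale these were changes of 2.08, 1.73 and 2.08 (SE 0.136 each), with limma adjusted p of 1.71e-07, 1.68e-06 and 1.32e-07.

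Adding VPA to VD3 left SCNN1A at 99.4% of its VD3 level, a log2 difference of -0.00 with a 95% interval of -0.30 to 0.30 (limma adjusted p = 0.994). If the log2 changes of the single compounds had added up, the level with both would have been 63.5 FPKM, beside the 18.5 ± 1.34 that was measured. The interaction, the VD3 step with VPA minus the VD3 step without it, was -1.73 (SE 0.192, limma adjusted p = 4.47e-05), and across all genes 44.3% had a called interaction, 19% above 0 and 25.3% below it. Adding VD3 to VPA raised SCNN1A by 0.35 on the log2 scale (SE 0.136, limma adjusted p = 0.0419), a call that was lost under several settings, among them without VPA replicate 1 (0.24, adjusted p = 0.165). Among all genes 63.3% were called between VD3VPA and VPA, 28.6% higher and 34.7% lower.

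The channel is known to be built from alpha, beta and gamma subunits, and the partners of SCNN1A were nearly silent. SCNN1B had 12 fragments over all 12 libraries, of which 11 came from VD3 cultures, and SCNN1G had 3, beside 34772 for SCNN1A. SCNN1D, encoding the delta subunit, had 644 and was below the minimum for testing. Exons of SCNN1A share 422 bases with LTBR, a gene on the opposite strand, and the strand setting of the counting is not given in the sources used here. LTBR stood at 5.54 ± 0.147 FPKM in Control, 6.17 ± 0.167 with VD3, 5.69 ± 0.255 with VPA and 5.00 ± 0.253 with both. It was called higher with VD3 (log2 change 0.13, limma adjusted p = 0.0213) and lower with both (-0.12, adjusted p = 0.0295). With VPA it did not pass (0.03, adjusted p = 0.571), and its interaction was -0.29 (adjusted p = 0.00339). The part of this overlap in the level of SCNN1A was not tested.

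Sums of marker genes moved beside SCNN1A. The 15 enterocyte markers went both ways, with 7 higher and 3 lower with VD3, 9 higher and 2 lower with VPA, and 7 higher and 5 lower with both, and their sum, most of it APOA1, was 8242 to 9891 FPKM in Control, 22231 to 27796 with VD3, 22494 to 24571 with VPA and 24283 to 27297 with both. Of the 10 mesenchymal cell markers 6 were tested, and PDGFRA was under 0.1 FPKM in every library. Their sum was 69.5 to 78.7 FPKM in Control, 155 to 219 with VD3, 144 to 174 with VPA and 193 to 217 with both. Most of it was SPARC, with means of 48.1 FPKM in Control, 149.8 with VD3, 127.9 with VPA and 160.5 with both. Of the 6 tested, 3 were called higher and 0 lower with VD3, 2 and 0 with VPA, and 3 and 1 with both. The part of either marker group in the rise of SCNN1A was not tested.

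SLC9A3, the main apical sodium/proton exchanger of the intestine (ENSG00000066230; chromosome 5, 470458 to 524332, minus strand), was at similar levels in all groups. Its level was 5.50, 5.92 and 5.00 FPKM in Control, 4.79, 4.24 and 6.02 with VD3, 5.93, 5.66 and 5.08 with VPA, and 5.27, 5.28 and 5.67 with both. All 4 groups overlapped. The log2 difference from Control was -0.11 with VD3 (95% interval -0.32 to 0.10), 0.02 with VPA (-0.19 to 0.23) and -0.01 with both (-0.22 to 0.19), with limma adjusted p of 0.319, 0.889 and 0.903. The VD3 difference was called without VD3 replicate 3, at -0.23 (adjusted p = 0.0237).

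Exons of SLC9A3 overlap those of other annotated genes. They share 830 bases with SLC9A3-AS1 and 839 with EXOC3, both on the opposite strand, and 2363 with PP7080 on the same strand. SLC9A3-AS1 was more abundant than SLC9A3 itself, at 25.8 ± 1.43 FPKM in Control, 23.9 ± 3.59 with VD3, 18.5 ± 0.0954 with VPA and 27.1 ± 0.365 with both. Fragments from these overlaps cannot be assigned with certainty, so the level of SLC9A3 is uncertain.

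SLC9A2, a second apical exchanger (ENSG00000115616; chromosome 2, 102619707 to 102711318, plus strand), was the lowest of the 8. Its level was 0.303, 0.448 and 0.419 FPKM in Control, 0.0883, 0.128 and 0.0659 with VD3, 0.239, 0.186 and 0.274 with VPA, and 0.103, 0.107 and 0.111 with both. The Control libraries were the highest and did not overlap with any other group, and VPA lay above both VD3 groups. These levels rest on 13 to 127 fragments a library: 295 in Control together, 60 with VD3, 143 with VPA and 71 with both. Counted over the pooled fragments, VD3 was at 0.241 of Control (exact 95% interval 0.180 to 0.319, counting error only), VPA at 0.590 (0.480 to 0.723) and both at 0.269 (0.205 to 0.350). With no minimum level, 36401 genes were tested and SLC9A2 was called lower in all 3 comparisons with Control (limma adjusted p of 0.000274, 0.024 and 0.000334).

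Within a library SLC9A3 exceeded SLC9A2 by 11.9 to 18.2 times in Control, 33.1 to 91.4 times with VD3, 18.5 to 30.5 times with VPA and 49.1 to 51.1 times with both. VD3 libraries did not overlap with Control or VPA libraries in this ratio.

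ATP1B1, the beta subunit that carries the sodium pump to the basolateral membrane (ENSG00000143153; chromosome 1, 169105697 to 169132722, plus strand), changed little. Its level was 141, 140.0 and 154 FPKM in Control, 145, 150.0 and 141 with VD3, 162, 157 and 163 with VPA, and 162, 158 and 156 with both. The 6 libraries with VPA lay above the 6 without it. The log2 difference from Control was 0.01 with VD3 (95% interval -0.09 to 0.11, limma adjusted p = 0.89), 0.15 with VPA (SE 0.045, adjusted p = 0.0144) and 0.13 with both (adjusted p = 0.022). The VPA difference fell to 0.03 when libraries were scaled to their own totals (adjusted p = 0.612) and to 0.04 with quantile normalization (adjusted p = 0.443), so this small rise depends on the scaling. The call with both was lost under 7 other settings, among them own library totals (0.09, adjusted p = 0.0746).

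SLC26A3, the chloride/bicarbonate exchanger whose loss causes congenital chloride diarrhoea (ENSG00000091138; chromosome 7, 107765467 to 107803225, minus strand), showed the widest swing among anion carriers. Its level was 38.5, 31.7 and 27.4 FPKM in Control, 25.5, 32.0 and 22.7 with VD3, 74.6, 62.0 and 68.6 with VPA, and 15.2, 15.4 and 15.0 with both. VPA alone stood above all other libraries, both compounds together stood below all of them, and Control and VD3 overlapped. VPA raised it 2.10-fold, a log2 change of 1.06 (SE 0.129, limma adjusted p = 4.35e-05), and both compounds left it at 46.8% of Control, a log2 change of -1.04 (adjusted p = 2.6e-05).

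VD3 alone changed SLC26A3 by -0.28 on the log2 scale (95% interval -0.56 to 0.01, limma adjusted p = 0.0838). That difference was called under 5 of the other settings, among them without VD3 replicate 2 (-0.41, adjusted p = 0.0142) and without Control replicate 3 (-0.39, adjusted p = 0.0236). In VPA-treated cells with VD3 it fell by 2.09 (adjusted p = 7.97e-08), to 22.2% of the VPA level. With VPA added to VD3 it fell by 0.76 (adjusted p = 0.00108), where 34.7% of all genes were called, 17.5% higher and 17.2% lower. The interaction was -1.82 (SE 0.183, limma adjusted p = 2.55e-05), and adding the log2 changes of the single compounds would have given 56.2 FPKM, beside the 15.2 ± 0.165 measured.

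**Figure D3:**
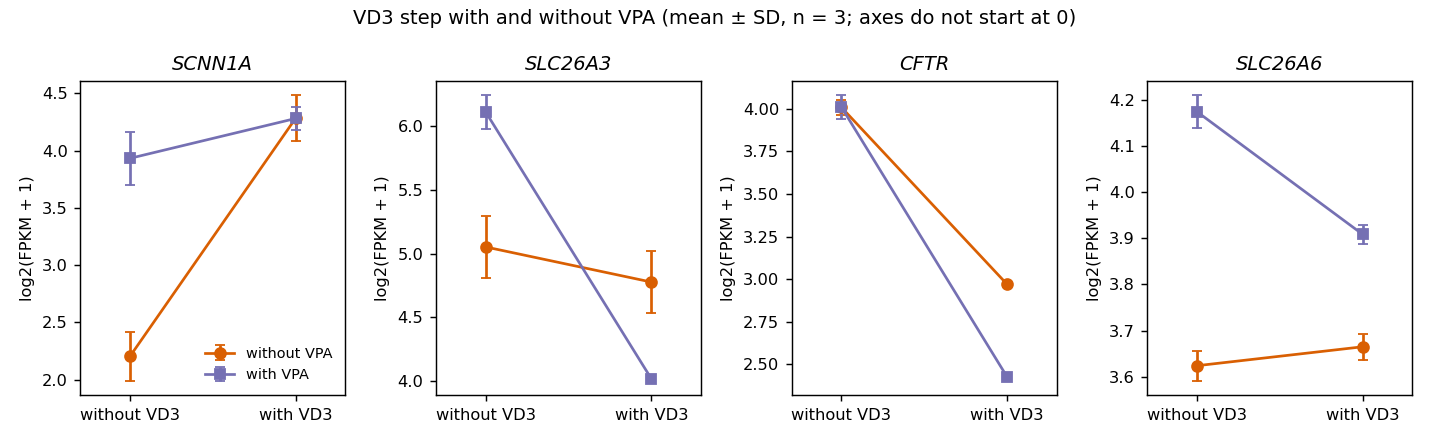
Mean log2(FPKM + 1) ± SD (vertical axes, which do not start at 0; n = 3) of 4 genes without and with VD3, in cultures without VPA (circles) and with VPA (squares). The VD3 step of SCNN1A is 2.08 without VPA and 0.35 with it, and that of SLC26A3 is -0.28 without VPA and -2.09 with it.

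SLC26A6, a related exchanger of chloride, bicarbonate and oxalate (ENSG00000225697; chromosome 3, 48625723 to 48635493, minus strand), rose with VPA in a narrow range. Its level was 11.5, 11.4 and 11.02 FPKM in Control, 11.6, 11.5 and 11.97 with VD3, 17.3, 17.3 and 16.5 with VPA, and 14.2, 14.0 and 13.8 with both. Control and VD3 overlapped, VD3VPA lay above them and VPA above VD3VPA. VPA raised it to 150.5% of Control, a log2 change of 0.55 (SE 0.036, limma adjusted p = 5.09e-07), both compounds to 124% (0.28, adjusted p = 2.93e-05), and VD3 alone differed from Control by 0.04 (95% interval -0.04 to 0.12, adjusted p = 0.343). The VD3 step was -0.27 in VPA cultures (adjusted p = 5.4e-05), and the interaction was -0.31 (SE 0.051, adjusted p = 0.000654).

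SLC26A3 exceeded SLC26A6 by 2.48 to 3.34 times in Control libraries, 1.89 to 2.78 times with VD3, 3.58 to 4.31 times with VPA and 1.07 to 1.09 times with both. In the VD3VPA cultures the exchangers were therefore close to the same level, and those libraries did not overlap with any other group in this ratio.

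CFTR, the apical chloride and bicarbonate channel that is mutated in cystic fibrosis (ENSG00000001626; chromosome 7, 117465784 to 117715971, plus strand), fell with VD3. Its level was 15.0, 15.7 and 14.7 FPKM in Control, 6.78, 6.84 and 6.88 with VD3, 15.1, 14.3 and 15.9 with VPA, and 4.30, 4.47 and 4.36 with both. Control and VPA overlapped, VD3 lay below them and VD3VPA below VD3. VD3 left 45.3% of the Control level, a log2 change of -1.04 (SE 0.042, limma adjusted p = 5.57e-09), and both compounds left 29.01% (-1.58, adjusted p = 1e-10).

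VPA alone differed from Control by 0.00 on the log2 scale in CFTR, with a 95% interval of -0.09 to 0.09 (limma adjusted p = 0.984). In VD3-treated cells with VPA it fell by 0.54 (adjusted p = 8.29e-06), to 64.1% of the VD3 level, and the interaction was -0.54 (SE 0.060, adjusted p = 4.24e-05). SLC26A3 exceeded CFTR by 1.87 to 2.58 times in Control libraries and by 3.29 to 4.93 times in the treated ones, and Control did not overlap with any treated group in this ratio. CFTR shares 8 exonic bases with CFTR-AS1 and 51 with CTTNBP2, which were at 0.611 ± 0.133 and 0.464 ± 0.0613 FPKM in Control.

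SLC12A2, which brings sodium, potassium and chloride in across the basolateral membrane (ENSG00000064651; chromosome 5, 128083766 to 128189688, plus strand), fell with VD3 too. Its level was 1.18, 1.11 and 1.21 FPKM in Control, 0.423, 0.503 and 0.518 with VD3, 1.04, 0.903 and 0.963 with VPA, and 0.424, 0.467 and 0.397 with both. The libraries with VD3 lay below those without it, and VPA lay below Control. VD3 left 41.4% of the Control level (log2 change -0.55, SE 0.060, limma adjusted p = 1.02e-05) and both compounds 36.9% (-0.60, adjusted p = 4.23e-06), while VPA left 83.3% and did not pass (-0.14, 95% interval -0.27 to -0.00, adjusted p = 0.0772). The log2 changes are understated at this low level: with a pseudocount of 0.1 the VD3 change was -1.12. VPA's difference was called under 4 other settings, among them voom on recovered fragments (-0.26, adjusted p = 0.0197).

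The partners of CFTR and SLC12A2 in secretion did not all behave alike. KCNE3, a potassium channel subunit of the crypt epithelium, went from 8.61 ± 1.14 FPKM in Control to 2.27 ± 0.122 with VD3, 8.91 ± 0.496 with VPA and 1.17 ± 0.0963 with both. It fell by 1.55 on the log2 scale with VD3 and by 2.14 with both compounds (limma adjusted p of 2.07e-08 and 1.05e-09), and did not pass with VPA (0.05, adjusted p = 0.604). KCNQ1, the channel it joins, was at 2.08 ± 0.122, 1.90 ± 0.245, 2.40 ± 0.303 and 1.73 ± 0.308 FPKM in Control, VD3, VPA and VD3VPA, and passed in none of the comparisons with Control. SLC4A4, a basolateral sodium bicarbonate cotransporter, stayed under the minimum in all groups, at 0.0402 ± 0.00804 FPKM in Control. It was at 0.0640 ± 0.00617 with VD3, 0.124 ± 0.0416 with VPA and 0.123 ± 0.0234 with both. These levels rest on 47, 64, 119 and 130 fragments in the same order of groups.

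**Figure D4:**
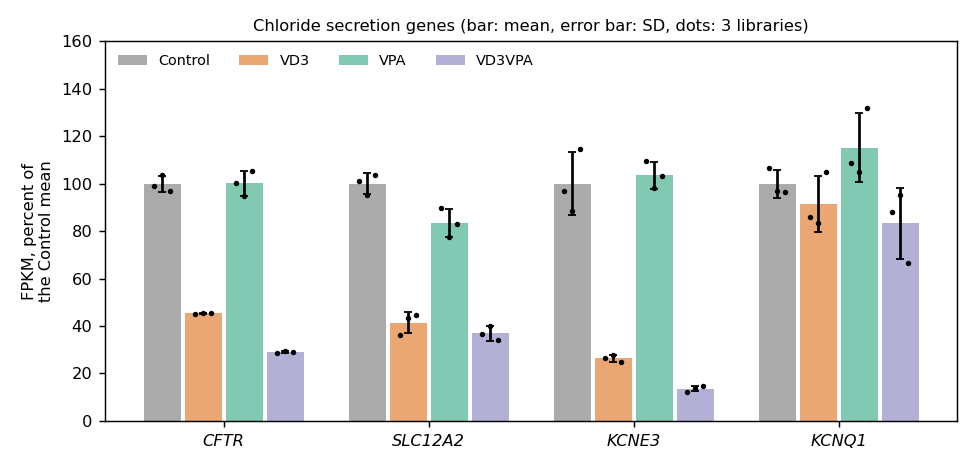
FPKM as a percent of the Control mean (vertical axis, from 0) for CFTR, SLC12A2, KCNE3 and KCNQ1; bars are group means, error bars SD and dots the 3 libraries of each group. VD3 leaves 45.3%, 41.4% and 26.4% of the first 3 and 91.4% of KCNQ1.

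Markers of other intestinal cells also differed between groups, but not only in the groups where these genes fell. The sum of 7 crypt stem and dividing cell markers was 10.8 to 13.6 FPKM in Control, 5.73 to 6.04 with VD3, 6.44 to 6.76 with VPA and 5.77 to 6.61 with both. Nearly all of it was PCNA, the only 1 of the 7 that was tested. PCNA had means of 10.3 FPKM in Control, 5.01 with VD3, 5.27 with VPA and 4.55 with both. The others had means under 1 FPKM in every group. With VD3 those of ASCL2 and SMOC2 were higher than in Control, and those of LGR5, OLFM4, MKI67 and TOP2A lower. Of 6 markers of BEST4+ enterocytes, a cell type known for high CFTR, 3 were tested, and 1 was higher and 1 lower with VD3. Their sum was 2.90 to 3.401 FPKM in Control, 4.22 to 5.71 with VD3, 1.72 to 2.51 with VPA and 3.31 to 3.91 with both. Of the 10 goblet and Paneth markers 2 passed the minimum, and MUC2, FCGBP, CLCA1 and REG3A were under 0.1 FPKM in every library. Of the 9 enteroendocrine markers 1 passed. The part of these cell types in the results was not tested.

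Beyond the 8 members, 4 lists of ion transport genes held 95 genes, 62 of them tested and 55 not members. With VD3 33 of the 55 were called higher and 10 lower. With VPA 25 were higher and 12 lower, and with both compounds 27 were higher and 16 lower. Their share called was 78.2%, 67.3% and 78.2%, beside the 62.5%, 52.7% and 64.3% of all genes, and their median log2 fold change was 0.25, 0.08 and 0.13. The lists were chosen with earlier results of these data known, so these shares are a description only. Interactions were called for 60% of the 55, with 7 above 0 and 26 below it. Among all genes 44.3% had a called interaction, 19% above 0 and 25.3% below it. The median interaction over all 55, called or not, was -0.23, beside -0.01 over all genes. These counts include 9 genes that stood under 1 FPKM in all libraries of at least 1 group and were tested through the groups where they were higher, among them ABCC4, KCNK5, FXYD2 and GUCA2A.

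In the apical sodium list, with SCNN1A and SLC9A3 counted, VD3 raised 12 of 17 tested genes and lowered 3. VPA alone and both compounds each raised 10 and lowered 3. The share called was 88.2%, 76.5% and 76.5%, beside 62.5%, 52.7% and 64.3% of all genes. PRSS8, a protease known to cleave and activate the epithelial sodium channel, went from 118 ± 3.44 FPKM in Control to 183 ± 5.94 with VD3 and 157 ± 2.35 with both, while its inhibitor SPINT1 went from 124 ± 6.49 to 233 ± 7.04 and 201 ± 3.46. SGK1, a kinase that keeps the channel at the membrane, rose from 5.67 ± 0.261 to 6.90 ± 0.865 FPKM with VD3 (limma adjusted p = 0.011) and to 9.86 ± 0.414 with VPA (adjusted p = 9.04e-06), and differed by 0.03 on the log2 scale with both compounds (adjusted p = 0.691). The VD3 and Control libraries of SGK1 overlapped, with the lowest VD3 library at 5.92 FPKM and the highest Control library at 5.95. Among the scaffolds that hold SLC9A3 in the brush border, PDZK1 rose from 6.63 ± 0.404 to 11.8 ± 0.708 with VD3, 12.7 ± 0.286 with VPA and 19.0 ± 1.92 FPKM with both. SLC9A3R1 (NHERF1) was at 217 ± 12.5 FPKM in Control and rose to 292 ± 8.94 with VPA but fell to 178 ± 9.30 with both, and SLC9A3R2 fell from 5.92 ± 0.882 to 3.26 ± 0.171 with VPA and 2.85 ± 0.296 with both.

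In the apical chloride and bicarbonate list 8 of 14 tested genes rose and 3 fell with each compound alone, and 8 rose and 4 fell with both. The share called was 78.6%, 78.6% and 85.7%, beside the same 62.5%, 52.7% and 64.3% of all genes. Carbonic anhydrases supply bicarbonate and protons to the exchangers. CA2, the cytosolic form, was at 30.1 ± 3.67 FPKM in Control, 135 ± 1.58 with VD3, 15.4 ± 1.45 with VPA and 103 ± 5.999 with both, so it rose with VD3 by 2.14 on the log2 scale and fell with VPA by 0.92 (limma adjusted p of 4e-09 and 4.8e-06). Membrane-bound CA4 rose from 8.58 ± 1.35 to 12.9 ± 1.15, 19.0 ± 0.807 and 21.6 ± 0.470 FPKM in the same order of groups, and CA12 from 4.29 ± 0.469 to 8.62 ± 0.230, 6.35 ± 0.928 and 8.07 ± 0.475. ABCC4, a pump that exports cyclic AMP, went from 1.73 ± 0.192 to 0.484 ± 0.028 with VD3, 4.09 ± 0.312 with VPA and 0.761 ± 0.0818 FPKM with both. The guanylin receptor GUCY2C rose from 30.8 ± 1.38 to 47.9 ± 2.05 with VD3 and 50.9 ± 0.895 FPKM with both, and its ligand GUCA2A rose from 1.03 ± 0.227 to 2.73 ± 0.392 with VD3. With VPA GUCA2A fell to 0.412 ± 0.297 FPKM (limma adjusted p = 0.0165), and with both it was at 1.496 ± 0.412 and did not pass. Its VPA libraries were at 0.0986, 0.689 and 0.448 FPKM. The gene is only 569 bases long, so these levels rest on few fragments.

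In the basolateral list 7 of 17 rose and 4 fell with VD3, 5 rose and 2 fell with VPA, and 5 rose and 7 fell with both. These are 64.7%, 41.2% and 70.6% of the list, beside the 62.5%, 52.7% and 64.3% of all genes. FXYD5, a regulator of the sodium pump, rose from 4.02 ± 0.419 to 11.4 ± 0.308 FPKM with VD3 and 9.04 ± 0.206 with both. FXYD2, another pump regulator, went from 0.0521 ± 0.0405 to 0.796 ± 0.0763 and 1.71 ± 0.174 FPKM, and the acid-sensitive potassium channel KCNK5 from 0.296 ± 0.0565 to 1.88 ± 0.254 and 2.91 ± 0.103. With VPA, FXYD3 and the potassium-chloride cotransporter SLC12A7 rose by 0.42 and 0.28 on the log2 scale.

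**Figure D5:**
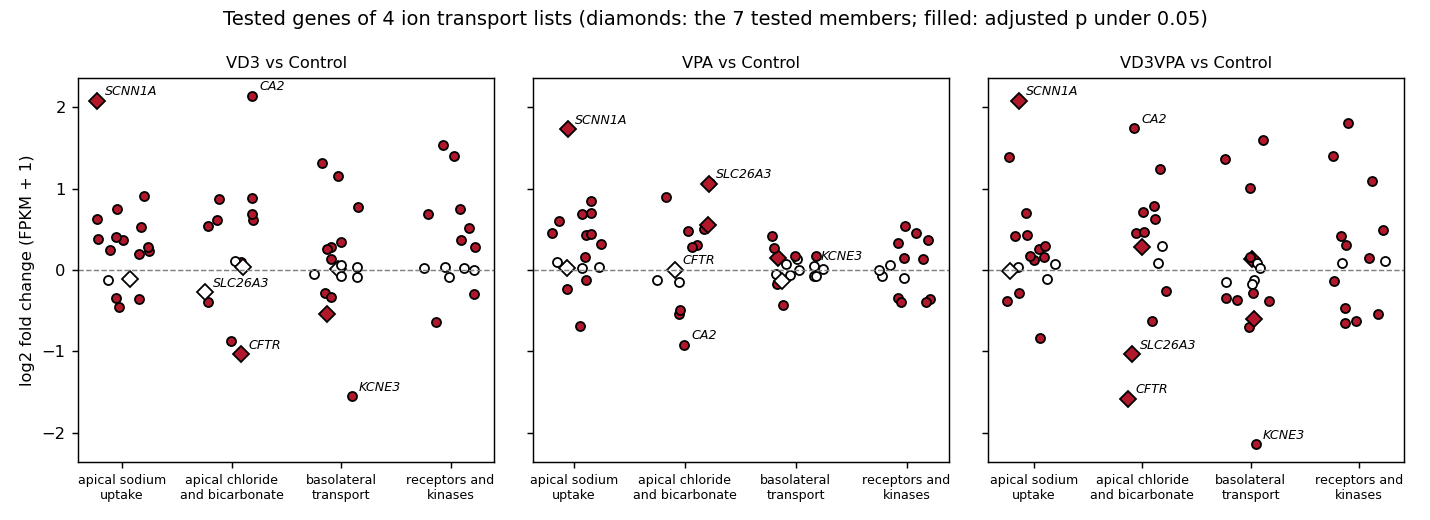
Log2 fold changes on the log2(FPKM + 1) scale (vertical axis) of the tested genes in 4 ion transport lists (horizontal axis), for each treatment against Control; diamonds are the 7 tested members and filled symbols have an adjusted p under 0.05. SCNN1A and CA2 lie highest with VD3, at 2.08 and 2.14, and KCNE3 lowest, at -1.55.

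Each member's nearest genes were sought among tested protein-coding genes, by the root mean square difference over the 12 libraries of log2(FPKM + 1) values centred on each gene's own mean. Nearest to CFTR were KITLG, the ligand of the KIT receptor, and NOCT, a circadian phosphatase (0.09 and 0.10, beside a spread of 0.68 for CFTR itself). Nearest to SLC26A3 were DPEP1, a brush border dipeptidase, and PHLDA1 (0.13 and 0.14, spread 0.77). DPEP1 was at 88.5 ± 10.6 FPKM in Control, 74.8 ± 10.6 with VD3, 163 ± 9.95 with VPA and 39.6 ± 0.377 with both. Nearest to SCNN1A were DYSF and SPARC, at 0.21 and 0.22, with a spread of 0.88. SFXN5 and the carnitine carrier SLC22A5 were nearest to SLC26A6 (0.04 each, spread 0.22), and TOMM70 and UBAP2 to SLC12A2 (0.03 and 0.04, spread 0.26). Because the scale understates changes of low genes, near genes can differ in fold change. With VD3, TOMM70 went from 21.4 to 14.7 FPKM and UBAP2 from 6.63 to 4.35, while SLC12A2 was left at 41.4% of Control. KITLG went from 3.00 to 1.01 FPKM, while CFTR was left at 45.3%. For SLC9A3, whose spread was 0.12, the nearest genes were ARIH2 and PKD1 (0.08 each), and for ATP1B1, whose spread was 0.08, RBM47 was among the nearest (0.04).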

How the data were processed

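The authors deposited FPKM of every gene in all 12 libraries, beside gene lengths, per the file headers. The submitters' processing notes name the build GRCh38.p13 and the tools DESeq2 1.20.0, HISAT2 2.0.5 and featureCounts 1.5.0-p3, with no roles. The 58735 gene identifiers and their coordinates are those of GENCODE release 29. FPKM times length gave whole fragments for 100% of values (within 0.01), and their scaling equals median-of-ratios size factors. Genes on chromosome Y were left out.

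Tests used limma 3.58.1 in R 4.3.3 with a mean per group and a trended prior, with 8 residual and 3.28 prior degrees of freedom, on log2(FPKM + 1) of genes that reached 1 FPKM in 3 or more libraries. The fit was tested on simulated data. Figures and summaries were made with matplotlib 3.10.9, SciPy 1.17.1, numpy 2.4.6 and pandas 2.3.3 in Python 3.11.15. Members, lists and tests were chosen with earlier results of these data known. Named genes were the members, 8 partners of theirs, the 3 largest called changes per list and treatment, and the 2 genes nearest each member. A few genes that this rule names are not reported here. Intervals on fragments cover counting error only. Alternatives changed the pseudocount, filter, scaling, prior, groups fitted, replicate block or model, or left out each library.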

Additional observations from a re-analysis of the deposited data

Results flagged for a closer look

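For 4 of the 7 tested genes the VD3 step differed between cultures with and without VPA by a test of the difference itself (limma, interaction term), where 44.3% of all genes had a called interaction and 25.3% one below 0. The difference was -1.82 on the log2 scale for SLC26A3, -1.73 for SCNN1A, -0.544 for CFTR and -0.307 for SLC26A6, and all 4 remained called, in the same direction, under every other setting tried for them, leaving out each library included. With libraries scaled to their own totals the median interaction of all genes moved from -0.01 to 0.11, and these 4 were at -1.66, -1.59, -0.40 and -0.16 (adjusted p of 4.4e-05, 0.00012, 0.00131 and 0.0264).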

How the results depend on the processing

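Of 911 log2 fold changes of the 7 tested members under other settings, 875 stayed on their side of the threshold, 18 lost the call and 18 gained one. The sign changed in 35, all of them in comparisons that were not called (0 called). The filter of 5 FPKM in 3 libraries removed SLC12A2, leaving 1 member lower with VD3, and cut the genes called to 4785 (VD3 against Control), 4183 (VPA against Control), 4883 (VD3VPA against Control), 2877 (VD3VPA against VD3), 4825 (VD3VPA against VPA) and 3647 (interaction) from 7852, 6614, 8072, 4359, 7948 and 5566, as fewer genes were tested. With VPA against Control 1 member was called lower with no filter (SLC9A2), and 1 (SLC12A2) with equal FPKM sums, with own library totals, with a constant prior variance and with voom. Between VD3VPA and VD3, 2 members were higher (ATP1B1 joining) with a pseudocount of 0.1, own totals, quantile normalization and only the groups compared. Between VD3VPA and VPA, 0 members were higher with a pseudocount of 0.1 and with no filter (SCNN1A lost), and 2 with quantile normalization; the cause was not tested. Leaving out each library gave 2 to 3 members lower with VD3, 2 to 3 higher with VD3VPA against Control, 1 to 2 higher between VD3VPA and VD3, and 0 to 1 between VD3VPA and VPA. ATP1B1's call with both compounds was lost with equal FPKM sums (0.10, adjusted p = 0.105), own totals (0.09), only the groups compared (0.13) and without Control replicate 1 (0.11) or 2 (0.11) or VD3VPA replicate 1 (0.12) or 2 (0.14). The share of higher genes among all calls went from 56.2% to 36.5% with VPA, and from 42.9% to 67.1% for the interaction, under own totals. Same-numbered libraries of different groups had deviations correlated at -0.083 to 0.15, over 0.1 in 3 of 18 pairs. The best match was the own number in 10 of 18 comparisons. Whether equal numbers mark paired libraries was not tested. A replicate block changed no member's call, with 7764, 6544 and 8022 genes called against Control with VD3, VPA and both. Depth limits SLC9A2, SCNN1B and SCNN1G, and GUCA2A in the VPA cultures.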

Other observations

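Of 14 tested genes for receptors and kinases that control epithelial ion transport, 7 rose and 2 fell with VD3, 6 rose and 4 fell with VPA, and 7 rose and 5 fell with both. These are 64.3%, 71.4% and 85.7% of the list, beside 62.5%, 52.7% and 64.3% of all genes. PTGER4 and CASR were under 1 FPKM in every library without VD3. P2RY2, a nucleotide receptor that stimulates chloride secretion, was at 6.72 ± 0.654 FPKM in Control, 21.4 ± 0.973 with VD3, 8.71 ± 0.317 with VPA and 26.0 ± 1.45 with both. The prostaglandin receptor PTGER4 went from 0.572 ± 0.143 FPKM in Control to 3.14 ± 0.452 with VD3 and 3.13 ± 0.0122 with both, and VIPR1, the receptor of vasoactive intestinal peptide, from 11.7 ± 1.06 to 20.3 ± 1.06 and 15.9 ± 0.690, while it fell with VPA alone to 9.01 ± 0.0895. P2RY2, PTGER4 and VIPR1 rose in the same cultures in which CFTR, SLC12A2 and KCNE3 fell, and a link was not tested. Other receptors of the list went different ways. From Control to VD3 and to both, P2RY4 went from a mean of 5.81 to 7.20 and 3.36 FPKM. Below the minimum for testing, ADORA2B went from 0.503 to 0.303 and 0.377. PTGER2 went from 0.0686 to 0.0110 and 0, and CHRM3 from 0.077 to 0.158 and 0.306. CASR, the calcium-sensing receptor, had 15 fragments over the Control libraries and 8 over the VPA libraries, beside 785 with VD3 and 1545 with both (1.16 ± 0.031 FPKM). The somatostatin receptor SSTR1 fell with VD3 from 7.78 ± 0.469 to 4.64 ± 0.234 FPKM and rose with VPA to 11.01 ± 1.17. STK39, the kinase SPAK that activates SLC12A2, was at 28.9 ± 0.659 FPKM in Control and 29.4 ± 3.37 with VD3, and fell to 21.7 ± 0.404 with VPA and 19.5 ± 0.422 with both. PRKACB, a catalytic subunit of protein kinase A, rose with VPA from 2.82 ± 0.175 to 4.56 ± 0.227 FPKM.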
